A study of Mus musculus with 98 samples.

Results

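The 10 genes described here are targets and transducers of the unfolded protein response. They are the mouse rows with the symbols Hspa5, Ddit3, Atf4, Xbp1, Creld2, Sdf2l1, Dnajb9, Hyou1, Pdia4 and Manf. They were chosen by name, with earlier results of these data known. All 10 were found among the 19689 mouse rows of the liver count table and among the 20415 mouse rows of the table for the other tissues, and all 10 passed the filter on low counts in every tissue; the lowest count of any of them in any library was 110. RNA came from liver, from muscle and from a pair of brain nuclei, the arcuate (ARC), which senses nutrients, and the suprachiasmatic (SCN), which holds the central clock. Tissues were taken at ZT 2, 6, 10, 14, 18 and 22, where ZT (Zeitgeber time) counts hours from lights on. The mice were male FRGN animals of 10 weeks, which lack Fah, Rag2 and Il2rg on a non-obese diabetic background. Their own hepatocytes are lost when nitisinone is withdrawn and are replaced by transplanted cells. In one arm the livers held human hepatocytes (Hu), in the other murine hepatocytes (Mu), so the control arm carries the same deletions, a transplant, and the same cycles of nitisinone and of sulfamethoxazole with trimethoprim.

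Liver and muscle had 15 Hu and 12 Mu libraries, and ARC and SCN each had 10 Hu and 12 Mu libraries, which makes 98 in all. Mu had 2 libraries per time in every tissue; Hu had 2 or 3 in liver and muscle, and in ARC and SCN 2 per time but 1 each at ZT6 and ZT22. Total mouse counts per library ran from 23.7 to 47.1 M in Mu ARC and from 7.70 to 87.9 M in Hu liver. The labels set the repopulation at more than 70%, a measure unlike a share of counts. In the Hu livers 15.9% to 93.1% of counts fell on human rows (median 58.7%). In the Mu livers that share was at most 0.0204%; how many human reads were assigned to mouse rows in the Hu livers was not measured. A mouse row in a Hu liver is thus meant to count the host's remaining cells, not the human hepatocytes. In the libraries labelled ARC all 4 ARC neuropeptide genes checked had higher medians than in those labelled SCN, for instance Pomc with medians of 33.7 and 1.99 CPM (the usual depth-scaled count, over mouse rows with TMM-scaled library sizes). The SCN neuropeptide genes did not set the SCN label apart: median Vip was 3.84 CPM in libraries labelled SCN and 4.21 in those labelled ARC, and Avp 64.7 and 199.5. Nms, with medians of 1.12 and 0.896 CPM, and Prok2, with 0.896 and 0.617, were higher under the SCN label. Both were low, and their ranges overlapped between the labels. SCN here therefore stands for the label. The labels do not say which libraries of different tissues came from the same animal, and p-values measure the spread between libraries.

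The unfolded protein response is the programme by which a cell matches the folding capacity of its endoplasmic reticulum (ER) to its load of secretory and membrane proteins. The sensors IRE1, PERK and ATF6 detect unfolded protein: IRE1 splices Xbp1 mRNA, PERK phosphorylates eIF2α and so favours translation of ATF4, and ATF6 is cleaved into a transcription factor. Hepatocytes secrete much of the plasma protein and feeding raises their ER load, and many chaperone genes of the liver are known to follow a daily rhythm.

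RefSeq promoter windows of 300 bases (250 before to 50 after the gene's start, assembly GRCm38.p6) were at hand for 8 of the 10 genes, all but Hyou1 and Manf. They were searched on both strands because several members, such as Hspa5 and Creld2, moved together in liver. The ER stress response element (ERSE), the letters CCAAT and CCACG with 9 bases of any kind between them, occurred in Hspa5 and Creld2 and in 0.119% of all 32851 promoters. It began 65 bases before the RefSeq start of Hspa5 and 126 bases before that of Creld2, on the opposite strand. The 30-base stretches are shown because they hold these elements, with the CCAAT and CCACG parts, or their reverse complement in Creld2, in capitals. Hspa5, chr2:34772019-34772048, strand +, and Creld2, chr15:88819514-88819543, strand +, read:
Hspa5: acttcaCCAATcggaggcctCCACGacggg
Creld2: gcttctCGTGGcgagcctcaATTGGtccac
The 250 bases before the Creld2 start, chr15:88819396-88819645, strand +, give the wider context of its element:
Creld2 promoter: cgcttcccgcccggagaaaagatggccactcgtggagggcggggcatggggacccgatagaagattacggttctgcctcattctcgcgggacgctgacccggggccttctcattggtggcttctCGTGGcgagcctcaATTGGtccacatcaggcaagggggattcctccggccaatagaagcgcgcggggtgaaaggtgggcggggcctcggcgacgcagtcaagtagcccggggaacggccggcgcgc

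The letters of ERSE-II (ATTGG, any 1 base and CCACG, in 0.0365% of promoters), of the unfolded protein response element (TGACGTGG, 0.676%) and of the ATF4-CEBP composite element (TGATGNAA, 3.97%) were not in these 8 windows. The E-box CACGTG, the core letters bound by CLOCK and BMAL1, was in 1 of the 8 windows, that of Dnajb9, and in 7.15% of all promoters. The window of Dnajb9 held no other match. A match describes letters in a window and was not tested for binding. In GRCm38 (GENCODE M21), the genes lie as follows: Hspa5 at chr2:34771970-34777547, Hyou1 at chr9:44379490-44392369, Pdia4 at chr6:47796141-47813430, Manf at chr9:106838312-106891979, Sdf2l1 at chr16:17130138-17132383, and then Creld2 at chr15:88819646-88826683, Dnajb9 at chr12:44205559-44210326, Xbp1 at chr11:5520659-5525893, Atf4 at chr15:80255184-80257541 and Ddit3 at chr10:127290774-127296288. All are protein-coding, and the counts are per gene. Another gene entry named Ddit3 overlaps Ddit3 in that annotation, and how reads in the overlap were assigned is not given in the sources used here.

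Hspa5, the ER chaperone BiP and the usual readout of the response, was the most abundant of the 10 per kilobase of exon in the Mu libraries of liver, ARC and SCN. CPM values are scaled within each tissue, so levels set across tissues carry no test. In Mu its mean was 242 CPM per kilobase in liver, 121 in ARC, 92.8 in SCN and 44.3 in muscle. Neighbours in that order overlapped: its level ran from 540.0 to 1861 CPM with a median of 889.8 in liver, from 356 to 613 CPM with a median of 511 in ARC, from 263 to 558 CPM with a median of 371 in SCN and from 149.7 to 316 CPM with a median of 177 in muscle. In Mu muscle Atf4, the transcription factor downstream of PERK, stood above it at 65.7 CPM per kilobase. Ddit3, which encodes the pro-apoptotic factor CHOP, was the lowest in Mu liver at 6.62 CPM per kilobase, and Sdf2l1, a partner of BiP, was the lowest in Mu muscle at 2.87.

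In both brain nuclei 6 of the 10 genes rose and fell over the day, high in the dark phase and low in the light phase. With the arms pooled, a 24 h rhythm passed the test (edgeR quasi-likelihood test, Benjamini-Hochberg adjusted p under 0.05 over all mouse genes tested in the tissue) for 6 of 10 genes in SCN, against 1.52% of all genes, and for 6 of 10 in ARC, against 4.53%. They were Hspa5, Creld2, Manf, Pdia4, Sdf2l1 and Xbp1 in each nucleus. Their fitted peaks fell between ZT 18.4 and ZT 20.04 in SCN and between ZT 16.7 and ZT 19.5 in ARC. Among all genes with such a rhythm, 38.6% in SCN and 42.3% in ARC peaked between ZT16 and ZT24.

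In SCN, Hspa5 at ZT6 was at 312 and 302 CPM in Mu and 254 in Hu. At ZT22 it was at 506 and 505 CPM in Mu and 508 in Hu, so all libraries at ZT22 stood above all at ZT6. The pooled fit gave a peak at ZT 18.99 ± 0.564 h and peak-to-trough fold of 1.75 (jackknife SE over libraries; adjusted p = 0.00133). Sdf2l1 swung most, with 6.09 and 8.10 CPM at ZT6 and 16.3 and 18.4 at ZT22 in Mu; its peak at ZT 20.04 ± 0.764 h and peak-to-trough fold of 2.19 had an adjusted p of 0.00689. Manf, a secreted ER stress-induced trophic factor, was at 34.5 and 36.8 CPM at ZT6 and 49.8 and 62.6 at ZT18 in Mu, with the peak at ZT 19.03 ± 0.552 h and peak-to-trough fold of 1.57 (adjusted p = 7.72e-04). For Xbp1, the substrate of IRE1, the fold was 1.52 (adjusted p = 9.86e-04), for Creld2, an ER stress-induced ER protein, 1.61 (0.00344) and for Pdia4, a disulfide isomerase, 1.45 (0.0108). Unspliced and spliced Xbp1 cannot be told apart in counts per gene.

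In ARC the same 6 genes had smaller fitted folds than in SCN. Hspa5 was at 415 and 356 CPM in Mu and 481 and 446 in Hu at ZT10, and at 597 and 587 in Mu and 545 in Hu at ZT22, with every ZT22 library above every ZT10 library. The peak at ZT 19.5 ± 0.661 h and peak-to-trough fold of 1.35 had an adjusted p of 0.00334. Folds of the other 5 ran from 1.31 for Pdia4 (adjusted p = 0.0275) to 1.58 for Sdf2l1 (adjusted p = 0.0355), and Creld2 peaked earliest, at ZT 16.7 ± 0.857 h. Whether a fold differed between the nuclei was not tested. The members outside the call in both were Atf4, Ddit3, Dnajb9 and Hyou1, with folds of 1.13, 1.15, 1.08 and 1.04 in ARC and 1.10, 1.09, 1.199 and 1.26 in SCN (adjusted p from 0.115 to 0.764). The PERK-branch factors Atf4 and Ddit3 had smaller fitted swings than the 6 called genes, and so did Dnajb9 and Hyou1.

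Between the arms, the brain values lay close together. No member differed in level in either nucleus (edgeR: 0 of 10 in ARC, where 0.00663% of all genes were called, and 0 of 10 in SCN, where 0% were; 0 and 0 at an unadjusted p under 0.05, and 0 and 0 with DESeq2). The fitted Hspa5 difference, on the log2 scale as Hu minus Mu, was -0.03 ± 0.05 in ARC and 0.00 ± 0.08 in SCN. The widest in either nucleus was that of Sdf2l1 in ARC at -0.10 ± 0.11. The test of a different rhythm called 0 of 10 in each nucleus (0% of all genes; 1 and 0 at an unadjusted p under 0.05, DESeq2 0 and 0). Leaving out each library in turn, 4 to 6 members were called rhythmic in ARC and 6 to 7 in SCN. In ARC, Sdf2l1 lost its call without 8 of the 22 libraries (highest adjusted p 0.0865) and Pdia4 without 5 (0.0689). With ZT as a factor in place of the 24 h cosine, 3 of 10 passed in each nucleus.

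**Figure D1:**
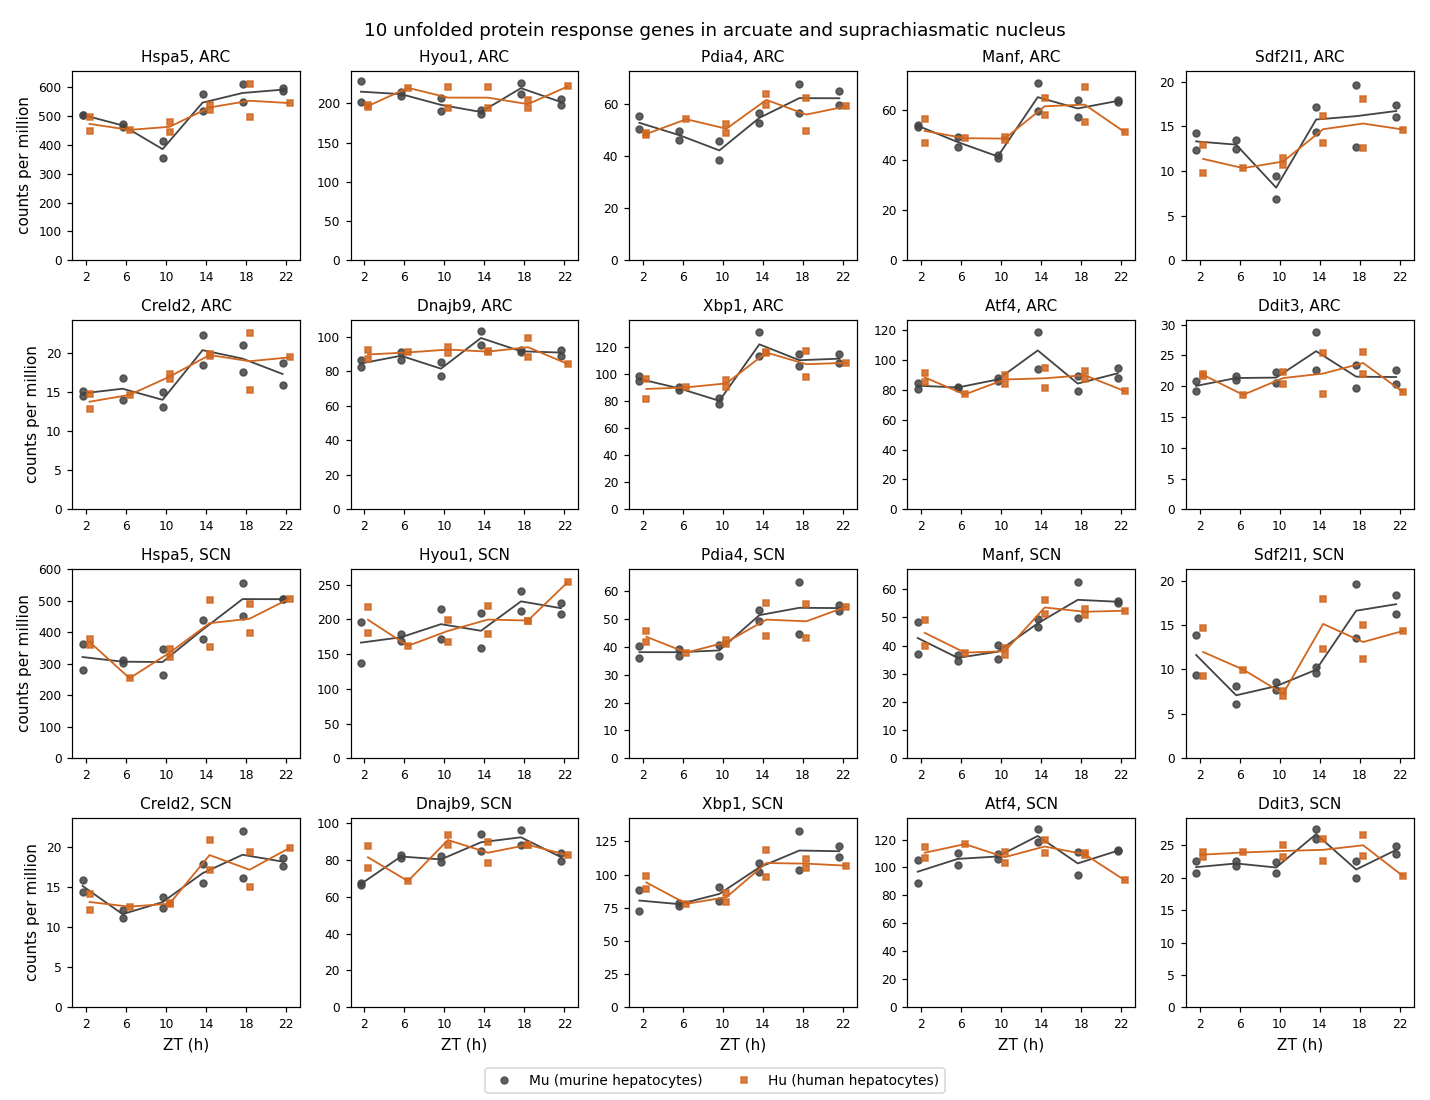
The CPM of each of the 10 genes against ZT in hours, in ARC (upper 2 rows of panels) and SCN (lower 2 rows); points are libraries, lines join the mean at each time, dark circles are Mu and orange squares Hu. The points of the arms overlap, and Hspa5 in SCN runs from 254 CPM in Hu at ZT6 to 508 at ZT22.

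In the Mu livers 5 chaperone and ER stress genes had a daily rhythm, with peak-to-trough folds from 2.18 to 3.65. Of these 5, 4 peaked between ZT16 and ZT24, as did 38.7% of all rhythmic genes, and Sdf2l1 peaked just after lights on. The rhythm test called 5 of 10 members in Mu (Hspa5, Hyou1, Manf, Pdia4 and Sdf2l1), where 17.3% of all mouse genes were called, and 0 of 10 in the mouse rows of the Hu livers, where 0.167% were. In Hu, 0 of 10 also passed at an unadjusted p under 0.05 and 0 with DESeq2. The test of the difference in rhythm between arms called 0 of 10 (1.28% of all genes; 3 of 10 at an unadjusted p under 0.05, 0 with DESeq2), so a difference between the arms is not shown by the call in one of them.

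Hspa5 in Mu liver was lowest at ZT10, at 540.0 and 582 CPM, and highest at ZT18, at 942 and 1861, and ZT22, at 1365 and 1707. The ZT22 libraries were above every library of ZT2 to ZT14. In the Hu livers it was at 894 and 658 CPM at ZT10, 699, 1453 and 610.0 at ZT18 and 642 and 1160.1 at ZT22, where the second library of ZT18 and that of ZT22 stood above the rest and the others overlapped the earlier times. The fit gave Mu a peak at ZT 21.3 ± 1.01 h and peak-to-trough fold of 2.45 (adjusted p = 0.0159) and Hu a peak at ZT 18.1 ± 1.83 h and peak-to-trough fold of 1.51 (adjusted p = 0.393).

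Hyou1, an ER chaperone and exchange factor for BiP, ran from 90.9 and 88.8 CPM at ZT10 to 339 and 396 at ZT22 in Mu. Its peak at ZT 21.5 ± 1.08 h and peak-to-trough fold of 3.48 had an adjusted p of 0.00374. Sdf2l1 was at 10.6 and 11.7 CPM at ZT14, 37.6 and 53.0 at ZT22 and 54.5 and 33.6 at ZT6 in Mu, the widest swing of the group, with a peak at ZT 0.480 ± 1.47 h and peak-to-trough fold of 3.65 (adjusted p = 0.0196). Manf had the peak at ZT 23.6 ± 1.12 h and peak-to-trough fold of 2.78 (adjusted p = 0.00565), and Pdia4 the peak at ZT 22.8 ± 1.28 h and peak-to-trough fold of 2.18 (adjusted p = 0.0258). Creld2 had a Mu fold of 2.76 and an adjusted p of 0.0879, outside the call; it passed with DESeq2 (adjusted p = 0.0439) and with each arm fitted alone (0.0272). In Hu the folds of these 6 genes, Hspa5 included, lay between 1.38 and 2.02. Xbp1, with a Mu fold of 1.15 (adjusted p = 0.804), was the flattest of the 10 in Mu liver.

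Calls in Mu liver depended on single libraries for 3 of the 5 genes. Hspa5 lost its call without the first Mu ZT10 library (adjusted p = 0.0501), Sdf2l1 without that library or either Mu ZT14 library (highest adjusted p 0.0762), and Pdia4 without either of ZT10, either of ZT14 or the second of ZT22 (highest 0.0821). Hyou1 and Manf were called in all 27 such fits. The count fell to 2 without the first Mu ZT10 library and to 3 without either Mu ZT14 library, and it was 1 with ZT as a factor.

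**Figure D2:**
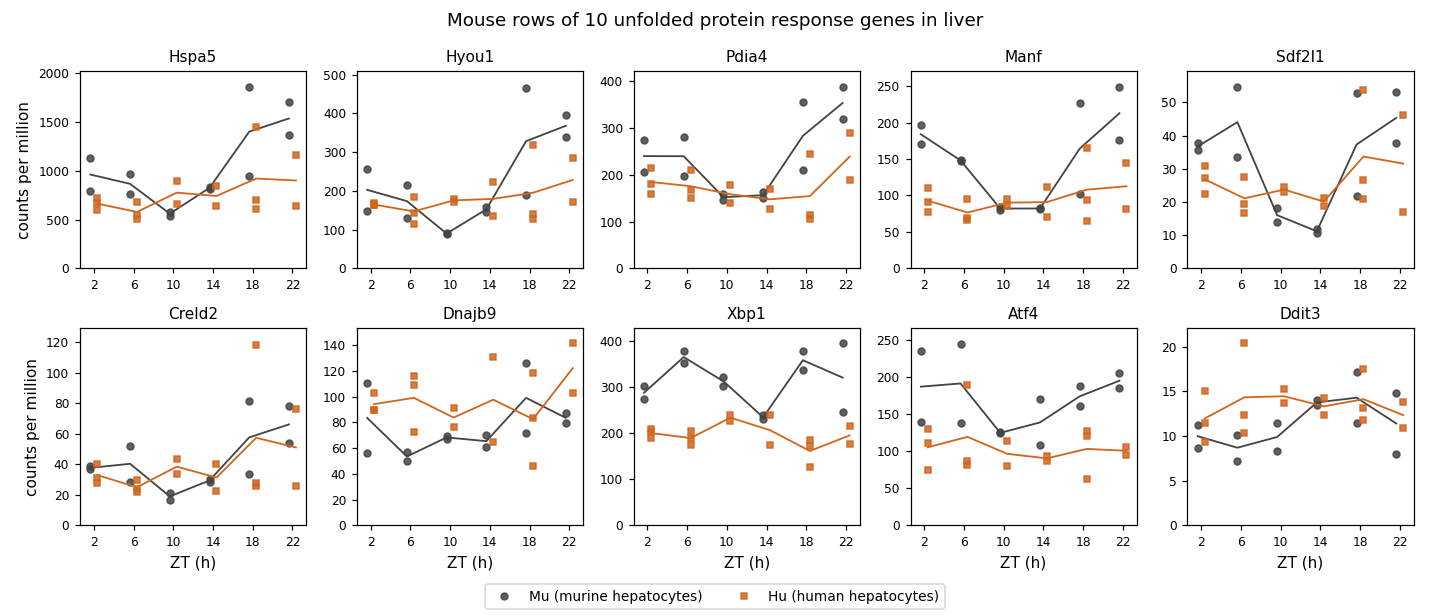
The CPM over mouse rows of each of the 10 genes in liver against ZT in hours; points are libraries, lines join the mean at each time, dark circles are Mu and orange squares Hu. In Mu, Hspa5 climbs from 540.0 and 582 CPM at ZT10 to 1365 and 1707 at ZT22, while most Hu libraries stay near their median of 673 CPM.

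The fitted amplitude (the cosine's height above its mean, in log2 CPM) was smaller in Hu than in Mu for 9 of 10 members in liver, against 63.3% of all genes. In muscle it was smaller for 9 of 10 (52.9%), in ARC for 9 of 10 (63.1%) and in SCN for all 10 (54.6%). In liver Hyou1 had 0.90 ± 0.21 in Mu and 0.23 ± 0.19 in Hu, and Manf 0.74 ± 0.10 and 0.24 ± 0.17. The exceptions were Xbp1 in liver and muscle, with 0.13 ± 0.09 in Mu and 0.33 ± 0.17 in Hu muscle, and Creld2 in ARC, with 0.24 ± 0.08 and 0.26 ± 0.10. The members share libraries, so these counts carry no test, and no member passed the test of a different rhythm in any tissue.

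**Figure D3:**
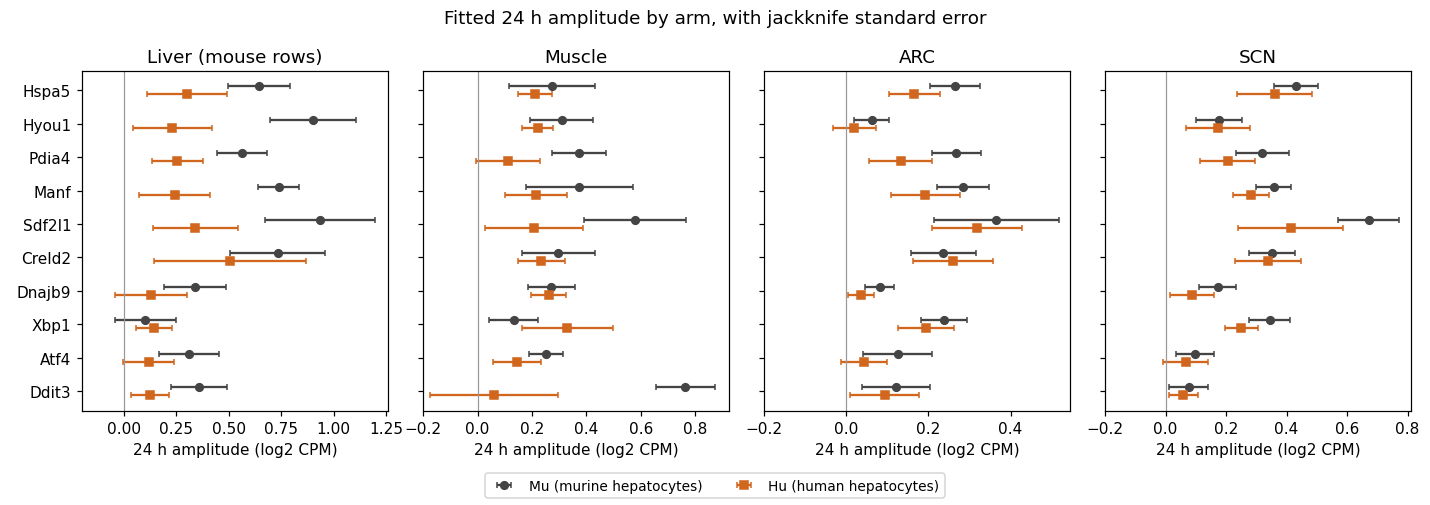
Fitted 24 h amplitude in log2 CPM of each gene in the 4 tissues, dark circles for Mu and orange squares for Hu; bars are jackknife standard errors over libraries, and each tissue has its own axis range. In liver Hyou1 stands at 0.90 in Mu and 0.23 in Hu, and in SCN the bars of the arms overlap for most genes.

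In level, the mouse rows of 5 of 10 members were lower in Hu than in Mu liver and 2 were higher. The 7 called lie near the share of all mouse genes, of which 79.5% were called (37% lower and 42.5% higher); the median over the 10 was -0.28 on the log2 scale against 0.07 over all genes tested. The largest decreases were those of the transcription factors Atf4 and Xbp1: Atf4 fell by 0.69 and Xbp1 by 0.68. In bulk tissue, fewer cells of a type and less RNA per cell cannot be told apart.

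Xbp1 ran from 230.2 to 395 CPM with a median of 313 in Mu and from 128 to 241 CPM with a median of 191 in Hu; 13 of the 15 Hu libraries were below every Mu library. Its difference was -0.68 ± 0.10 (adjusted p = 1.44e-06). Atf4 ran from 108 to 244 CPM with a median of 165 in Mu and from 62.5 to 189 CPM with a median of 94.8 in Hu, with 9 of 15 Hu libraries below every Mu library and a difference of -0.69 ± 0.14 (adjusted p = 1.35e-04). Manf ran from 80.4 to 249 CPM with a median of 148 in Mu and from 64.7 to 165 CPM with a median of 91.2 in Hu. It, at -0.54 ± 0.14 (adjusted p = 0.00106), Pdia4, at -0.41 ± 0.14 (0.00855), and Hspa5, at -0.38 ± 0.15 (0.0217), were also lower. Their ranges overlapped between the arms: 5, 4 and 1 of the 15 Hu libraries lay below every Mu library. Hspa5 lost its call without the second Mu ZT18 library (adjusted p = 0.0564) and with the replicate block (0.0561).

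Dnajb9, a BiP co-chaperone that restrains IRE1, ran from 49.8 to 126 CPM with a median of 69.9 in Mu and from 45.9 to 141 CPM with a median of 91.0 in Hu. It was higher in Hu by 0.35 ± 0.15 (adjusted p = 0.0348), with 13 of 15 Hu libraries above the Mu median. Ddit3 ran from 7.26 to 17.1 CPM with a median of 11.4 in Mu and from 9.38 to 20.4 CPM with a median of 13.1 in Hu and was higher by 0.27 ± 0.12 (adjusted p = 0.0395), with 12 of 15 above it. Neither call held with every library left out: Dnajb9 lost its call without any 1 of 12 of the 27 libraries (highest adjusted p 0.0796) and Ddit3 without any 1 of 9 (0.0820). Without the filter on low counts both missed the threshold (adjusted p = 0.0541 and 0.0653). Ddit3 also missed it with RLE scaling (0.0557), ZT as a factor (0.0748) and DESeq2 (0.0505). Both also changed sign when library sizes were taken over mouse and human rows with no scaling factor, to -0.38 and -0.42, a scaling that moved the median of all genes from 0.07 to -0.70. Creld2, Hyou1 and Sdf2l1 did not pass, at -0.04 ± 0.23, -0.16 ± 0.17 and -0.17 ± 0.20.

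Marker genes of liver cell types moved with the arm in the same libraries. Of 8 hepatocyte markers, 6 were lower in the mouse rows of Hu liver (median -1.32 on the log2 scale), and their summed level was 98412 to 130903 CPM in Mu and 8082 to 90584 CPM in Hu. All 5 bile duct markers were higher (median 2.16; 73.5 to 162 CPM in Mu and 236 to 867 CPM in Hu). Higher too were all 6 stellate cell and fibroblast markers (median 1.72; 420.2 to 589 CPM and 527 to 4531 CPM), all 5 of endothelium (median 1.12; 231 to 314 CPM and 259 to 1441 CPM) and 4 of 6 of Kupffer cells and macrophages (median 0.75; 559.8 to 960.3 CPM and 564 to 2419 CPM). No hepatocyte marker was at 0 in every library of an arm. The part of these shifts in the member levels was not tested.

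Within the 15 Hu livers, Atf4 fell as the share of human counts rose. The share was uneven over the day. It was 66.3% and 81.3% at ZT10, 67.9% and 79.8% at ZT14, and 42.7% and 52.5% at ZT22. At the other times it ran from 15.9% to 93.1%. Share and time are thus partly confounded in the Hu livers, which bears on this slope and on the Hu liver rhythm values. A fit with the human share and a 24 h rhythm, in which leaving out the first Hu ZT6 library gave 1 member, called 2 of 10 members, both lower with more human counts, where 41.7% of 13879 genes were called (22.9% higher and 18.8% lower). Atf4 changed by -0.21 ± 0.03 on the log2 scale per 10 percentage points (adjusted p = 1.62e-04). It was at 130.3 CPM in the library with a 15.9% share, 189 at 24.96%, and 62.5 at 93.1%, the lowest of the 15. Ddit3 changed by -0.13 ± 0.03 per 10 points (adjusted p = 0.00909), a call lost without the first Hu ZT6 library (adjusted p = 0.0512). For Hspa5 the slope was -0.07 ± 0.06 (adjusted p = 0.410). The marker lists moved with the share as well: 3 of 8 hepatocyte markers fell, and all 6 stellate and 4 of 5 bile duct markers rose. With library sizes over all rows and no scaling factor all 10 members fell with the share, as did the median of all genes, from -0.01 to -0.31.

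In muscle the levels of 8 of 10 members did not pass the test between arms, and 2 did (26.9% of all genes were called, 13.5% higher and 13.3% lower). Ddit3 was lower in Hu, with a difference of -0.73 ± 0.19 (adjusted p = 0.00768). It ran from 10.4 to 30.9 CPM with a median of 19.5 in Mu and from 5.17 to 21.1 CPM with a median of 10.8 in Hu, with 14 of 15 Hu libraries below the Mu median and 7 below every Mu library. The arms were apart in the dark phase: at ZT14 the Mu libraries were at 29.9 and 22.4 CPM and the Hu libraries at 9.48 and 5.17, and at ZT22 Mu was at 29.6 and 28.7 and Hu at 5.92 and 17.4. At ZT6 they overlapped, Mu at 10.4 and 13.3 and Hu at 11.6, 10.8 and 16.4. Ddit3 had an amplitude of 0.76 ± 0.11 in Mu (adjusted p = 0.0671) and 0.06 ± 0.23 in Hu (adjusted p = 0.972), and the difference in rhythm had an adjusted p of 0.346.

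Xbp1 was higher in Hu muscle by 0.27 ± 0.10 (adjusted p = 0.0458), with 14 of 15 Hu libraries above the Mu median. The 2 Hu libraries at ZT14, at 78.6 and 117 CPM, were the highest of all 27, and the call was lost without any 1 of 18 libraries (highest adjusted p 0.0897). Without the first Mu ZT18 library 4 members were called. Atf4 did not pass, at 0.00 ± 0.07, nor did Hspa5, at -0.12 ± 0.08. Cell type markers shifted in muscle too: summed fat cell markers were at 133 to 2065 CPM in Mu and 187 to 2263 CPM in Hu (3 of 5 called higher), slow fibre markers at 2058 to 14270.3 CPM and 331 to 4309 CPM (2 of 5 lower), and 5 of 5 macrophage markers tested were higher. Their part in the member values was not tested.

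**Figure D4:**
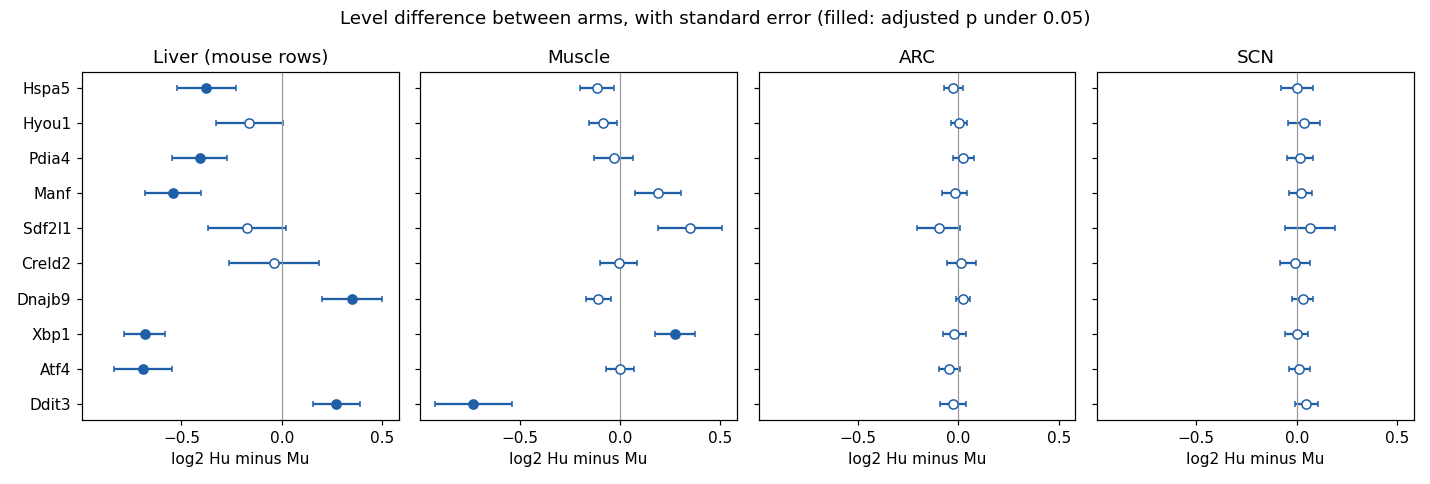
Difference in level of each gene between the arms (log2 Hu minus Mu) in the 4 tissues; bars are standard errors and filled points have an adjusted p under 0.05. Most liver points lie left of 0, Atf4 at -0.69, Ddit3 in muscle lies at -0.73, and the ARC and SCN points lie near 0.

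Few members passed the rhythm test in muscle, where fitted peak-to-trough folds in Mu ran from 1.203 for Xbp1 to 2.88 for Ddit3. The test called Hyou1 and Dnajb9 in Mu (2 of 10, where 5.31% of all genes were called; 9 of 10 at an unadjusted p under 0.05) and Dnajb9 in Hu (1 of 10, 7.78%; 5 of 10 unadjusted), and 0 of 10 had a different rhythm between arms (0.0704%; 2 unadjusted, DESeq2 0). Dnajb9 had a peak at ZT 14.6 ± 1.01 h and peak-to-trough fold of 1.46 in Mu (adjusted p = 0.0343) and a peak at ZT 12.1 ± 0.869 h and peak-to-trough fold of 1.44 in Hu (adjusted p = 0.0286). Hyou1 had a peak at ZT 20.03 ± 1.23 h and peak-to-trough fold of 1.54 in Mu (adjusted p = 0.0305) and a peak at ZT 15.4 ± 1.36 h and peak-to-trough fold of 1.36 in Hu (adjusted p = 0.0615). The Mu count was 0 without the second ZT6, first ZT10, second ZT14 or first ZT18 library of Mu, 1 without either ZT2, the second ZT10, the second ZT18 or either ZT22 library of Mu, 4 without the first ZT6 library of Hu, 5 without the first ZT6 library of Mu and 6 with DESeq2. The first Mu ZT18 library was the highest of all for Hspa5, at 316 CPM. The Hu count was 0 without the second ZT2, either ZT14 or the second ZT22 library of Hu, and 2 without the third ZT2, second ZT10 or second ZT18 library of Hu or the first ZT18 library of Mu.

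In muscle every member had its fitted peak earlier in Hu than in Mu, where 60.3% of all genes did. The differences ran from -4.61 to -1.40 h with a median of -2.82 h, against a median of -1.75 h over all genes. Hyou1 peaked at ZT 20.03 ± 1.23 h in Mu and ZT 15.4 ± 1.36 h in Hu, a difference of -4.61 ± 1.83 h. Dnajb9, called in both arms, differed by -2.52 ± 1.33 h. Hspa5 was at ZT14 at 233 and 222 CPM in Hu and 169.6 and 198 in Mu. At ZT18 it was at 179.9, 184 and 195 in Hu and 316 and 203 in Mu. It was highest at ZT14 in Hu and at ZT18 in Mu, where the second library lay near the 198 of ZT14. The highest Mu values of Hspa5, Hyou1, Manf, Creld2, Pdia4, Sdf2l1, Atf4 and Ddit3 all fell at ZT18. Mu had 2 libraries at that time, so these highest values come from few, shared libraries. How far the fitted Mu peaks lean on them differs by member. Mean Mu Ddit3 was also high at the times around it, with 26.2 CPM at ZT14, 28.9 at ZT18 and 29.1 at ZT22. A gene with little amplitude has no set peak (Ddit3 in Hu has a peak error of 16.4 h), and 0 of 10 passed the test of a different rhythm. The peak was earlier in Hu for 6 of 10 members in liver (57.3% of all genes), 7 in ARC (52.9%) and 6 in SCN (54.7%), where the median difference was -0.27 h.

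**Figure D5:**
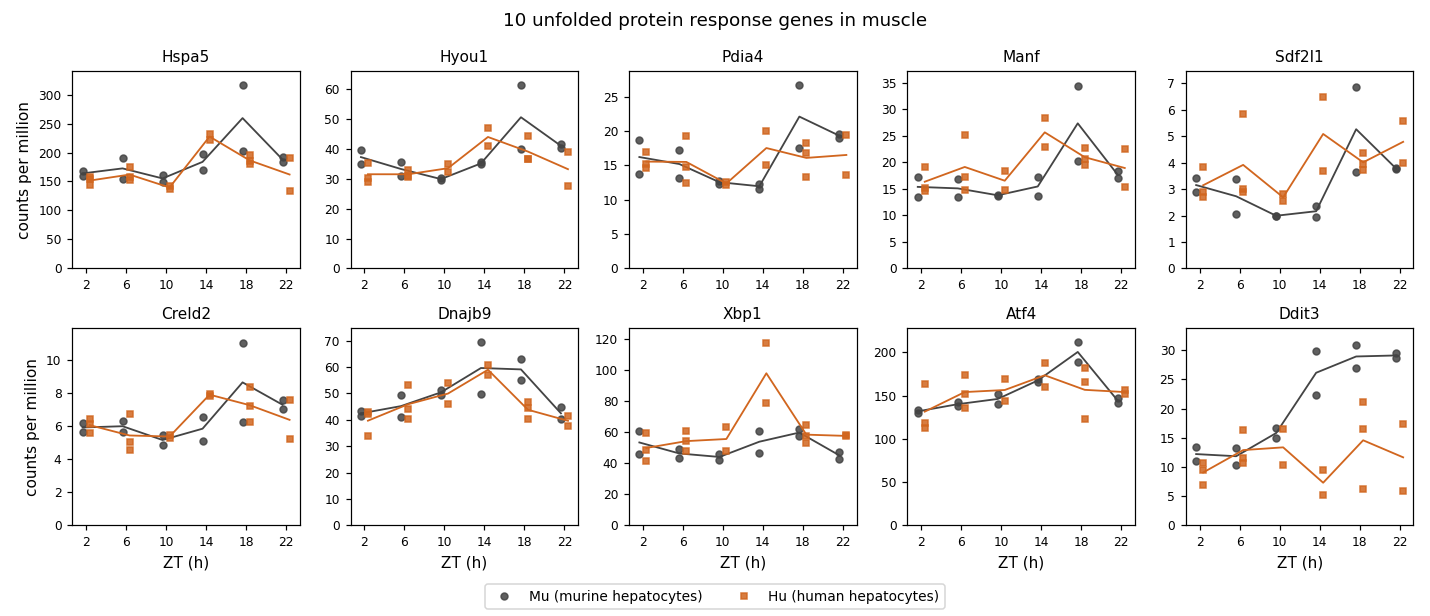
The CPM of each of the 10 genes in muscle against ZT in hours; points are libraries, lines join the mean at each time, dark circles are Mu and orange squares Hu. Ddit3 in Mu reaches 29.6 and 28.7 CPM at ZT22 with Hu at 5.92 and 17.4, and Xbp1 in Hu peaks at ZT14.

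The wider pathway, 73 genes in 4 lists, gives the setting. In liver, 14 of 20 ER folding genes were lower in Hu and 4 higher (median -0.56 on the log2 scale, against 0.07 over all genes). Of all genes 37% were lower and 42.5% higher, which is the background for each list of the wider pathway in liver. Among the lower were Pdia5, a disulfide isomerase, at -1.199 ± 0.10 (50.8 to 84.4 CPM in Mu and 18.6 to 42.3 CPM in Hu), Hsp90b1 (GRP94) at -0.56 ± 0.12 and Calr (calreticulin) at -0.63 ± 0.10. Dnajc10, an ER reductase, was higher at 1.41 ± 0.10, and so was Ero1l, the oxidase that recharges the isomerases, at 0.80 ± 0.09. Of 18 genes of ER-associated degradation and export 11 were lower and 1, Edem2, higher (median -0.37); Herpud1, part of the retrotranslocation complex, was at -1.41 ± 0.16 and Sel1l, the adaptor of the ligase Syvn1, at -0.75 ± 0.07. Hsp90b1, Calr and Edem2 were named after their values were seen.

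The list of ATF4 and CHOP targets went the other way in liver: 16 of 26 were higher in Hu, 6 lower, with a median of 1.07, although Atf4 mRNA itself was lower. Psat1, an enzyme of serine synthesis, had 0.561 to 6.56 CPM in Mu and 6.68 to 49.0 CPM in Hu, a difference of 3.997 ± 0.36 with no overlap between arms. Sesn2, a stress-induced inhibitor of mTORC1, had 7.71 to 17.4 CPM and 18.98 to 57.3 CPM, a difference of 1.62 ± 0.14. The lower members were Atf5, Bbc3, Cebpb, Cth, Ppp1r15b and Shmt2, named because they were called, and of these Ppp1r15b encodes a regulator of eIF2α dephosphorylation. Within the Hu livers 11 of the 26 fell with the human share and 0 rose, where 18.8% of all genes fell and 22.9% rose. Whether human reads reached these mouse rows was not tested. Of 9 sensors and their proteases 3 were higher and 2 lower, among them Eif2ak3 (PERK) at 0.64 ± 0.09 and Mbtps2, the protease that completes ATF6 cleavage, at 0.54 ± 0.07; both changed sign, to -0.10 and -0.21, with library sizes over all rows and no scaling factor. The marker shifts given for the members apply to these lists as well.

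The rhythms of the wider lists in Mu liver covered 7 of 20 folding genes, 8 of 18 of degradation and export, 2 of 9 sensors and 5 of 26 ATF4 and CHOP targets, and 0 in each list in Hu liver. The background over all genes was 17.3% for Mu liver and 0.167% for Hu liver. The counts of sensors and of ATF4 and CHOP targets in Mu lie near it. Sel1l peaked at ZT 19.97 and Syvn1 at ZT 21.3. Trib3, a target of ATF4 and CHOP, peaked at ZT 6.04, in the light phase. In the brain nuclei the folding genes Calr, Dnajb11, Pdia3 and Pdia6 and the degradation gene Herpud1 were called in SCN. These 5 with Hsp90b1, Dnajc3 and Dnajc10 were called in ARC, where Dnajc10 alone of the 8 peaked in the light phase. They are named because they were called. The folding genes called were 4 of 20 in SCN and 7 of 20 in ARC, and the degradation and export genes 1 of 18 in each. Of all genes 1.52% were called in SCN and 4.53% in ARC. In SCN, Pdia3 and Herpud1 passed the rhythm test only narrowly (adjusted p = 0.04995 and 0.0485). Pdia6 peaked at ZT 20.1 in SCN (fold 1.52, adjusted p = 9.86e-04) and at ZT 20.6 in ARC (fold 1.30, adjusted p = 0.0104), and Calr at ZT 21.3 in SCN (fold 1.36, adjusted p = 0.00183) and at ZT 21.5 in ARC (fold 1.29, adjusted p = 0.00308). In ARC, 3 of 24 tested ATF4 and CHOP targets (Cth, Psat1 and Slc7a5) had a common rhythm, and 0 of 24 in SCN.

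In muscle 7 ATF4 and CHOP targets of 25 tested were higher in Hu and 1 lower (of all genes, 13.5% were higher and 13.3% lower), while Ddit3 was lower and Atf4 did not pass. Eif4ebp1, a brake on translation, had 20.5 to 52.8 CPM in Mu and 27.04 to 245 CPM in Hu (0.90 ± 0.20), and Slc3a2, an amino acid transporter subunit, 21.1 to 29.98 CPM and 28.2 to 59.3 CPM (0.43 ± 0.10). Ddit4, an inhibitor of mTORC1, had a rhythm in Hu muscle with a peak at ZT 13.1 and an amplitude of 1.64 log2 CPM, against 0.76 in Mu. Its difference in rhythm did not pass (adjusted p = 0.300; 0 of 25 in the list), and with each arm fitted alone it was rhythmic in Mu too (adjusted p = 0.0146). Atf6 was lower in Hu muscle at -0.14 ± 0.04. In ARC and SCN 0 genes of the 4 lists differed in level.

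As a description of which genes moved like Hspa5, log2 CPM was correlated with it across libraries, which share their depth and scaling. Over the 12 Mu livers the 5 genes with the highest Pearson r were Hyou1 (0.993), Copg1 (0.971), Cad (0.970), Syvn1 (0.969), Lrrc59 (0.961), of 14976. Over the 15 Hu livers they were Creld2 (0.969), Hsp90b1 (0.943), Manf (0.928), Dnajb11 (0.910), Calr (0.897), and over the 27 muscle libraries Hyou1 (0.875), Cct3 (0.863), Dnaja1 (0.831), Tmem251 (0.825), Hspa1b (0.813). Among the members, Creld2 ranked 7 in Mu liver, 1 in Hu liver and 10 in muscle, and Manf 228, 3 and 20. Xbp1 ranked 5570 in Mu liver (r = 0.144) and Atf4 3497 (r = 0.377). Hspa5 and Creld2, the genes whose windows hold the ERSE letters, had r = 0.952 in Mu and 0.969 in Hu liver. The windows were searched because these genes moved together, so this r is no test of the element. Of the searched genes without the letters, Pdia4 had r = 0.918 in Mu and 0.623 in Hu, and Sdf2l1 0.684 and 0.837. For Dnajb9, Ddit3, Atf4 and Xbp1 r ran from 0.144 to 0.690 in Mu and from -0.13 to 0.454 in Hu. Hspa5 and Creld2 both stood high in the second Hu ZT18 library, with Creld2 at 118 CPM.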

How the data were processed

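Total RNA of liver, muscle, ARC and SCN was sequenced after directional library preparation, per the labels. The authors deposited raw counts per gene; the submitters' processing notes name STAR and the builds GRCm38 (mm10), GRCh38 (hg38) and hg19, and the counting step and annotation are not given in the sources used here. Symbols were matched for 19615 of 19689 and 20329 of 20415 mouse rows.

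The deposited counts of mouse rows were fitted per tissue with edgeR 4.0.16 in R 4.3.3: filterByExpr, TMM, quasi-likelihood tests with arm and 24 h cosine and sine terms per arm (pooled arms for the common rhythm in ARC and SCN), and Benjamini-Hochberg adjustment over all genes tested in the tissue, at 0.05. Errors of peaks and amplitudes are jackknife standard errors over libraries. A column each of Hu ARC and Hu SCN at ZT22 carries no sample of its own in the labels used here and was taken by its group. Scripts were tested on simulated data. Alternatives were DESeq2 1.42.0, RLE scaling, no filter, ZT as a factor, each arm alone, other library sizes, the human share as a covariate, the replicate block and leaving out each library.

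Genes are named by these rules: all 10 members, the 2 genes of each wider list with the smallest p for rhythm in Mu liver, for rhythm in Hu muscle and for level in liver and in muscle, of which the text names some, and the 5 genes most like Hspa5. The members and lists were chosen with earlier results of these data known. Replicate numbers were not taken as pairs in the main fits, and whether they pair the samples is not settled. Human rows are not reported by gene.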

Additional observations from a re-analysis of the deposited data

How the results depend on the processing

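Of the counts of members called, these moved by over 1.5 times, while the 7 called in liver level became 5 to 8 over the alternatives that keep all libraries. With ZT as a factor, 1 member was rhythmic in Mu liver, 0 in Mu muscle, 3 in ARC and 3 in SCN, and 1 differed in level in muscle. With DESeq2, 6 were rhythmic in Mu muscle and 3 in Hu muscle; with each arm fitted alone, 4 and 0. Without the filter on low counts, 1 differed in level in muscle. With library sizes over all rows and no scaling factor, chosen after seeing the data, 0 members were rhythmic in Mu liver, 1 (Pdia4) in Hu liver, and 10 changed with the human share; Dnajb9 turned to -0.38, Ddit3 to -0.42, Eif2ak3 to -0.10 and Mbtps2 to -0.21 in liver level, and the slope of Atf6b on the share to -0.24. Across all genes, DESeq2 called 1118 with a common rhythm in ARC and 806 in SCN, against 683 and 228, and ZT as a factor 154 and 31; the replicate block gave 148 in SCN. For level DESeq2 called 14 in ARC and 1 in SCN, against 1 and 0. In liver DESeq2 called 3768 rhythmic in Mu and 516 in Hu, against 2598 and 25, and ZT as a factor 640 and 8; each arm alone gave 3928 and 8, the human share as a covariate 13 in Hu, and no scaling factor 85 and 8605. For a different rhythm in liver, DESeq2 called 1152, ZT as a factor 11, no filter 107 and no scaling factor 11, against 192, and for the human share no scaling factor 11066 against 5792. In muscle DESeq2 called 1491 rhythmic in Mu, 1703 in Hu and 161 different, ZT as a factor 165, 440 and 1, and each arm alone 1749 and 135, against 754, 1104 and 10. Of calls in liver level, 2494 of 11472 were higher with no scaling factor, against 6365 of 11907. Leaving out each library in turn, the members called ranged from 2 to 6 (Mu liver rhythm), 0 to 0 (Hu liver rhythm), 5 to 7 (liver level), 1 to 2 (human share), 0 to 5 (Mu muscle rhythm), 0 to 2 (Hu muscle rhythm), 1 to 4 (muscle level), 4 to 6 (ARC rhythm) and 6 to 7 (SCN rhythm); it was 0 to 0 for level in ARC and SCN and for different rhythms in all tissues. The cause of these moves was not tested.

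With the replicate block, 1 member (Ddit3) differed in level in muscle, and Hspa5 in liver level and Sdf2l1 in the ARC rhythm also missed the threshold (adjusted p = 0.0561 and 0.0553). In ARC and SCN the block fit also left out the only Hu ZT22 library, which has no replicate number. Its ARC and SCN values therefore mix the block with a lost library. The pairing check correlated deviations between same-numbered Hu and Mu libraries. Mean correlations were 0.115 in liver, 0.0250 in muscle, 0.130 in ARC and 0.120 in SCN. The correlation was over 0.1 in 7 of 12 pairs in liver, 2 of 12 in muscle, 6 of 8 in ARC and 4 of 8 in SCN.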
